A study of Mus musculus with 32 samples.

Results

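Chemokine ligands, the small secreted or membrane-bound proteins that direct leukocyte movement, were followed through the RNA of re-sorted lung organoid cultures. The genes were Cxcl5, chosen for its measured difference between EVs and vehicle in Epcam+ cells, Cxcl12 and Cx3cl1, chosen for their measured differences between OGN and vehicle in CCL206 fibroblasts, and 7 further ligands named beside them (Cxcl1, Cxcl10, Cxcl16, Ccl2, Ccl7, Ccl20 and Cxcl15). Of these 10 genes, 9 were present in the deposited table of 11818 genes and all 9 were tested, and Cxcl10 was not analysed here. The choosing differences are given as descriptions only, without a test. Each of the 9 had at least 8 counts in every library.

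Epcam+ cells (CD45-/CD31-) from the lungs of naive C57BL/6J mice aged 8 to 14 weeks had been grown with CCL206 cells, fibroblasts of an established mouse lung line, which mitomycin C had kept from dividing. The co-cultures received vehicle, extracellular vesicles (EVs, 1000000000 particles per mL), soluble factors (SFs, 30 µg/mL) or osteoglycin (OGN, 10 µg/mL) for 72 h. EVs and SFs came from MRC5 cells, a human fetal lung fibroblast line, and OGN was recombinant human protein. After magnetic re-sorting on Epcam, the Epcam+ and the CCL206 fraction of every culture were sequenced, which gave 4 libraries in each of 8 groups, 1 for each of 4 mice. CCL206 cells are 1 line, so the mouse number of a CCL206 library stands for the culture and the mouse of its epithelial partner, and not for a fibroblast donor.

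The 32 libraries held between 1805914 and 17675454 counts, with a median of 5901652. The 10 AT2 (alveolar type 2) markers summed to between 9552 and 15999 CPM (counts scaled to library size) in the Epcam+ libraries and to between 1597 and 4841 CPM in the CCL206 libraries, so they were higher in every Epcam+ library but present in both fractions. The 9 fibroblast markers present of 10 summed to between 2052 and 3745 CPM in the Epcam+ libraries and to between 7834 and 13270 CPM in the CCL206 libraries. Of 12 immune markers only Cd68, Lyz2 and Cd14 could be analysed here, and of 7 endothelial markers only Vwf, at up to 5.94 CPM. Among the EV-treated fibroblast libraries, those of mice 2 and 4 stood apart, with short transcripts high and long transcripts low, and the calls on EVs in fibroblasts are given below with and without them.

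Chemokines are grouped by the spacing of their first cysteines into the CXC, CC and CX3C families, and bind G protein-coupled receptors on the cells they attract. CXC ligands that carry the ELR motif (Cxcl1, Cxcl3, Cxcl5) attract neutrophils through Cxcr2, Ccl2 and Ccl7 attract monocytes through Ccr2, and Ccl20 attracts Ccr6-bearing lymphocytes and dendritic cells. In the lung, alveolar type 2 cells are a known source of Cxcl5 and Cxcl15, and stromal cells make Cxcl12, which retains and guides Cxcr4-bearing cells. Cx3cl1 and Cxcl16 are made as membrane-bound proteins and are released by ADAM proteases.

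Several of the genes are neighbours. On chromosome 5 (GRCm38.p6, RefSeq annotation) Cxcl5 lies at chr5:90759298-90761625, Cxcl3 at chr5:90786101-90788093, Cxcl15 at chr5:90794534-90803067 and Cxcl1 at chr5:90891245-90893121. On chromosome 11 Ccl2 lies at chr11:82035577-82037452, Ccl7 at chr11:82045712-82047525 and the further ligand gene Ccl8 at chr11:82115185-82116799. Cxcl16 lies elsewhere on that chromosome at chr11:70454389-70459984, Cxcl12 at chr6:117168535-117181368, Cx3cl1 at chr8:94772180-94782427 and Ccl20 at chr1:83116766-83119167. The sample labels name GRCm39 and the methods GRCm38 patch 6 as the genome the reads were aligned to, and the positions here play no part in any count.

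The 250 bases upstream of the start of Cxcl1, Cxcl3 and Ccl20 are shown because these genes were higher with OGN in both fractions and their windows hold a match to the NF-kB consensus, which is in capitals. All are on the plus strand and written 5′ to 3′, from RefSeq on GRCm38.p6, at chr5:90890995-90891244 for Cxcl1, chr5:90785851-90786100 for Cxcl3 and chr1:83116516-83116765 for Ccl20.
Cxcl1: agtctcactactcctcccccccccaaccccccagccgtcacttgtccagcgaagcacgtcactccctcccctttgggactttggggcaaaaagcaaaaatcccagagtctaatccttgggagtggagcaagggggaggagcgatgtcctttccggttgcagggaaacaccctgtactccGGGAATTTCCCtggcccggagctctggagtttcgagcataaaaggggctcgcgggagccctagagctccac
Cxcl3: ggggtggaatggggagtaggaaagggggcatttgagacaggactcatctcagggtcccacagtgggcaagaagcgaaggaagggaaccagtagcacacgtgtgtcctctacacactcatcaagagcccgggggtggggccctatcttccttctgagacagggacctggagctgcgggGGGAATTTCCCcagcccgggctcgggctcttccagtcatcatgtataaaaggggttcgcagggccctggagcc
Ccl20: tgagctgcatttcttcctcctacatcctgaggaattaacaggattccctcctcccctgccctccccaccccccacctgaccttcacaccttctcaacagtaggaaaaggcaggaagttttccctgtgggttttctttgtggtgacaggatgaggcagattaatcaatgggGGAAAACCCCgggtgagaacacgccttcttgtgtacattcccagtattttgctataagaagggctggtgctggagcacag
In Cxcl1 and Cxcl3 the capitals cover overlapping matches on both strands. Upstream windows were at hand for 5 of the 9 genes, of which Cxcl1 and Ccl20 held a match on either strand and Cxcl12, Cx3cl1 and Cxcl15 held none. Of 5 windows of 4 further ligand genes of the table, those of Cxcl3 and Ccl9 held a match, and those of Ccl8 and Ccl25 held none. Ccl9 fell with OGN in fibroblasts, so matches stood upstream of genes that moved in either direction. Over all 32851 upstream windows of the same length, 1281 (3.9%) held a match. A match describes these letters only, and no binding was measured in this series. Cxcl5, Cxcl16, Ccl2 and Ccl7 had no entry.

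In vehicle-treated cultures the 9 ligands divided between the fractions, and each differed between them (9 of 9 with an adjusted p under 0.05 in edgeR's quasi-likelihood F test with Benjamini-Hochberg adjustment, against 69.6% of all genes tested). Cxcl5, Ccl20, Cxcl15 and Cxcl16 were higher in the Epcam+ fraction, and Cxcl12, Cx3cl1, Cxcl1, Ccl2 and Ccl7 were higher in the CCL206 fraction. The largest differences in each direction were those of Ccl20, with a log2 difference of 3.98 ± 0.29 (SE, adjusted p = 2.89e-13) towards Epcam+ cells, and of Cxcl12, with a log2 difference of -2.45 ± 0.13 (SE, adjusted p = 1.98e-16). These tests set libraries of the same cultures side by side, with the mouse as a block common to both fractions. The tests of Cxcl5, Cxcl12 and Cx3cl1 use vehicle libraries that had helped to choose them, so they are not independent of that choice. The count of 9 holds these genes. In bulk RNA, fewer cells of a type and less RNA per cell cannot be told apart.

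Levels of different genes were compared per kilobase of transcript (CPM per kb). In vehicle-treated Epcam+ libraries Cxcl15, also called lungkine, stood far above the other ligands at 906 ± 153 CPM per kb (SD, n = 4), and only 0.394% of 11690 genes with a length were higher. Ccl2 and Cxcl5 followed at 77.0 ± 19.1 and 62.2 ± 11.9 CPM per kb, and the other 6 ligands lay between 17.4 (Ccl7) and 31.99 CPM per kb (Cxcl16). In vehicle-treated CCL206 libraries Ccl2 was highest at 301 ± 30.9 CPM per kb, with 1.12% of genes above it, ahead of Cxcl15 at 187 ± 71.8 and Cxcl12 at 126 ± 22.1 CPM per kb. Ccl20 was the lowest of the 9 in fibroblasts, at 1.90 ± 0.93 CPM per kb, and 87.6% of genes lay above it. Ccl2 and Cxcl5 in Epcam+ cells, and Cxcl15 and Cxcl12 in fibroblasts, differed by less than the larger of the SDs of each pair.

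**Figure D1:**
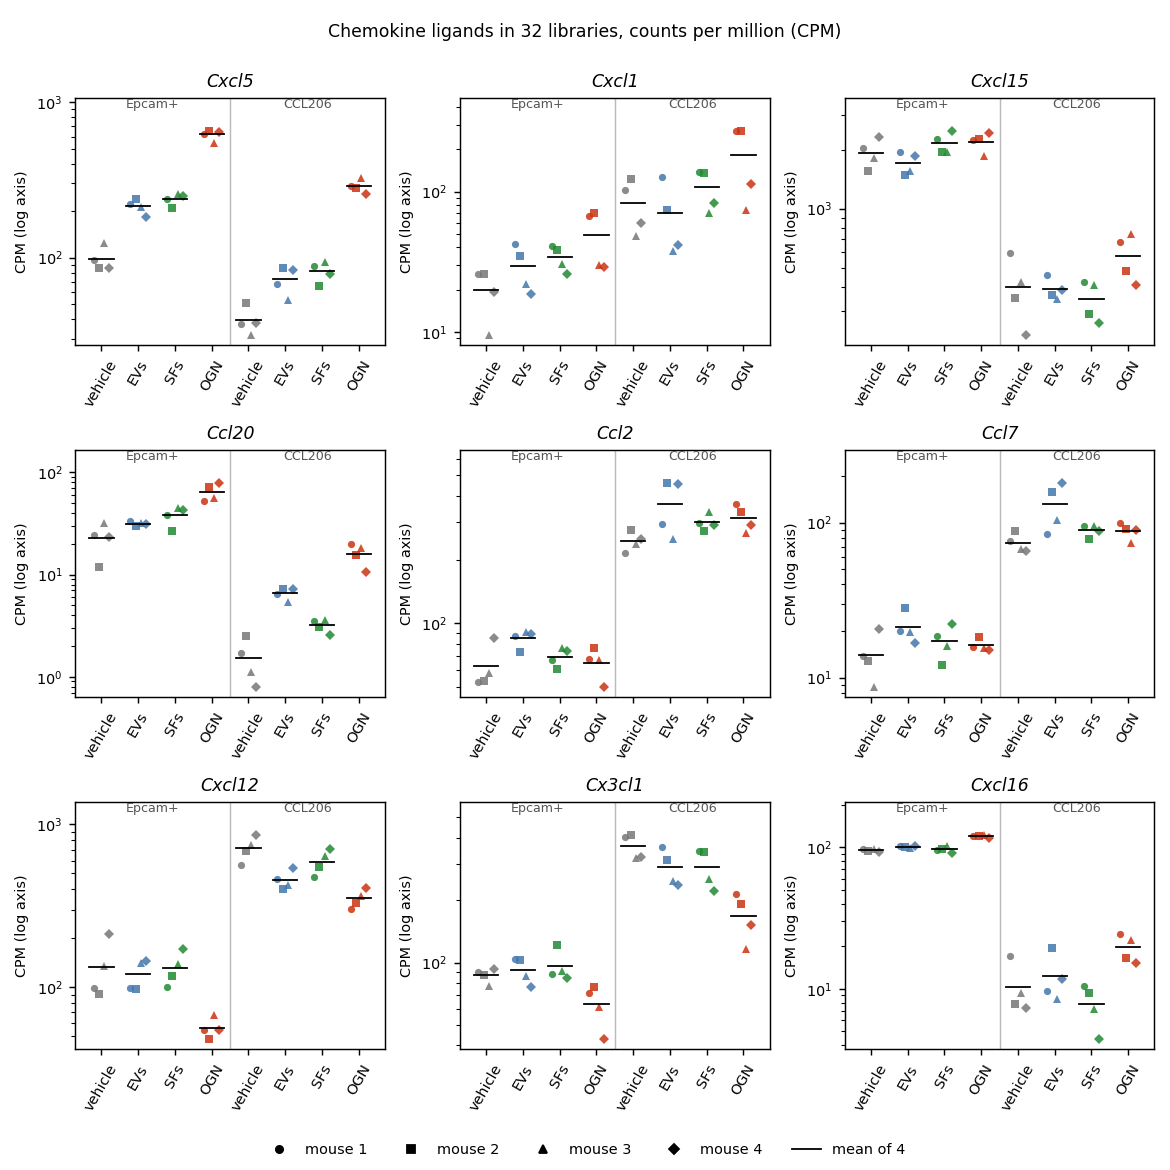
CPM (log axis, 1 scale over all 32 libraries) of the 9 ligands in the 8 groups, each point 1 library and each mark shape 1 mouse, with the mean of 4 as a line. Cxcl5 sits between 551 and 657 CPM in the OGN-treated Epcam+ libraries against 85.1 to 125 CPM with vehicle, while Cxcl12 falls from 563 to 863 CPM with vehicle to 304 to 408 CPM with OGN in CCL206 libraries.

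OGN and the ligands of epithelial cells were compared first, to ask which chemokine messages changed when cultures received the protein. In Epcam+ cells the neutrophil attractants Cxcl5 and Cxcl1 and the Ccr6 ligand Ccl20 rose with OGN, Cxcl16 rose slightly, and Cxcl12 and Cx3cl1 fell. Of the 9 ligands tested 6 passed (4 higher, 2 lower), where 2.70% of all 11716 genes tested passed. Ccl2, Ccl7 and Cxcl15 did not pass. The median log2 fold change of the 9 was 0.24, against -0.0031 over all genes.

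Cxcl5 measured 96.8, 85.2, 125 and 85.1 CPM in the vehicle-treated Epcam+ libraries of mice 1 to 4, and 629, 657, 551 and 648 CPM with OGN. The groups lay far apart, and mouse 3, the highest with vehicle, was the lowest with OGN. Cxcl5 rose by a log2 fold change of 2.67 ± 0.11 (SE, adjusted p = 2.71e-13), in 4 of 4 mice. This test, like the count of 6, uses the vehicle libraries that had helped to choose Cxcl5, so it is not independent of that choice.

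Cxcl1 measured 25.8, 25.7, 9.50 and 19.2 CPM with vehicle and 67.1, 70.6, 29.8 and 28.8 CPM with OGN. The groups did not overlap, and mice 1 and 2 were above mice 3 and 4 in both, as they were in all the other groups of either fraction. The log2 fold change of Cxcl1 was 1.27 ± 0.17 (SE, adjusted p = 4.79e-05). Ccl20 measured 24.2, 11.9, 31.9 and 23.4 CPM with vehicle and 52.7, 71.6, 56.1 and 79.4 CPM with OGN, again without overlap. The log2 fold change of Ccl20 was 1.48 ± 0.18 (SE, adjusted p = 1.58e-05). The calls of Cxcl5, Cxcl12, Cxcl1 and Ccl20 held under all 12 alternative settings, which are listed with the methods.

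Cxcl12 measured 99.1, 90.7, 134 and 212 CPM with vehicle and 54.8, 47.9, 68.0 and 54.6 CPM with OGN in Epcam+ libraries. Every OGN value lay below every vehicle value, and mouse 4 gave the largest drop. The log2 fold change of Cxcl12 was -1.17 ± 0.12 (SE, adjusted p = 2.01e-06). Cx3cl1 measured 89.7, 87.2, 77.0 and 93.4 CPM with vehicle and 71.5, 76.5, 61.3 and 42.8 CPM with OGN, and the groups nearly met between 76.5 and 77.0 CPM. The log2 difference was -0.47 ± 0.11 (SE, adjusted p = 0.0213). This call of Cx3cl1 was lost in 5 of 12 alternative settings, with an adjusted p between 0.00393 and 0.179, among them those without mouse 1, 3 or 4.

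Cxcl16, the membrane-bound Cxcr6 ligand, differed little and evenly. It measured 97.2, 94.9, 98.1 and 92.6 CPM with vehicle and 120, 121, 123 and 117 CPM with OGN, and rose by a log2 fold change of 0.33 ± 0.072 (SE, adjusted p = 0.0118). The call was lost in 4 of 12 alternative settings (adjusted p between 9.01e-04 and 0.121), 3 of which left out mouse 1, 2 or 3. Of the 50-base stretches of the Cxcl16 gene 77% also lie, on the opposite strand, in Med11 or Zmynd15. The share on the opposite strand was 20.9% for Cxcl5 and 8.67% for Cx3cl1. Over both strands together Cxcl5 shared stretches with 11 other genes, of which 4 were in the deposited table. Whether reads were counted by strand is not given in the sources used here, so for these 3 ligands reads of such stretches and of the genes on the opposite strand cannot be told apart. The log2 fold changes of Ccl2, Ccl7 and Cxcl15 with OGN were 0.10, 0.24 and 0.20 (adjusted p = 0.835, 0.709 and 0.268).

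The summed CPM of the immune markers Cd68, Lyz2 and Cd14 also moved with OGN in Epcam+ libraries, from between 464 and 513 CPM with vehicle to between 712 and 872 CPM. Lyz2 and Cd14 passed the test and are made by alveolar epithelial cells too. The sum of the 6 airway markers present of 7 was between 2967 and 4684 CPM with vehicle and between 1679 and 3151 CPM with OGN. The part of these shifts in the chemokine differences was not tested. The sum of the fibroblast markers ranged from 2239 to 3111 CPM with vehicle and from 2052 to 2588 CPM with OGN, and 2 of these 9 genes fell and 1 rose.

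EVs and SFs were compared with vehicle in the same Epcam+ cells, against the same vehicle libraries. Cxcl5 was higher with both agents, whereas Cxcl12 and Cx3cl1 overlapped with vehicle. Cxcl5 measured 223, 238, 210 and 183 CPM with EVs, a log2 difference of 1.10 ± 0.11 (SE) from vehicle, which is the value that chose it. With SFs it measured 240, 209, 256 and 249 CPM and rose by 1.28 ± 0.11 on the log2 scale (SE, adjusted p = 4.34e-07), again against the vehicle libraries used in choosing it. The EV and SF libraries overlapped each other, and all of them lay above vehicle and below OGN. Cxcl12 ranged from 97.98 to 145 CPM with EVs and from 100.4 to 171 CPM with SFs (log2 fold changes -0.13 and -0.0066). Cx3cl1 ranged from 76.0 to 104 CPM with EVs and from 84.2 to 121 CPM with SFs (0.056 and 0.11).

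None of the other 8 ligands passed for EVs in Epcam+ cells with edgeR, and none with DESeq2, where 0.888% of all genes passed. At an unadjusted p under 0.05 stood 5 of the 8, and 1195 of all 11716 genes. Cxcl1 measured 42.3, 34.7, 21.9 and 18.6 CPM with EVs (log2 fold change 0.55, adjusted p = 0.166), Ccl2 87.3, 73.5, 90.7 and 89.2 CPM (0.45, adjusted p = 0.1402) and Ccl7 20.0, 28.1, 19.8 and 16.8 CPM (0.58, adjusted p = 0.283). Each of these groups overlapped with vehicle, where Ccl2 ranged from 52.8 to 85.6 CPM and Ccl7 from 8.69 to 20.6 CPM. Without mouse 4, 3 ligands passed: Cxcl1, Ccl2 and Ccl7.

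With SFs 2 of the 9 ligands passed in Epcam+ cells, both higher, where 0.230% of all genes passed. Beside Cxcl5 this was Cxcl1, at 41.2, 38.6, 30.2 and 25.9 CPM, just above the highest vehicle value of 25.8 CPM. On the log2 scale it rose by 0.83 ± 0.17 (SE, adjusted p = 0.0478), and the call was lost in 8 of 12 alternative settings (adjusted p between 0.00239 and 0.814). Ccl20 measured 38.7, 26.5, 44.5 and 42.5 CPM with SFs, with a log2 fold change of 0.72 (adjusted p = 0.173). The summed fibroblast markers were higher with EVs, between 3162 and 3745 CPM, and 4 of 9 rose, and the airway markers were between 1840 and 3035 CPM, and 4 of 6 fell. With SFs the airway markers summed to between 1881 and 3344 CPM and 3 of 6 fell, and the immune markers summed to between 553 and 648 CPM, above every vehicle library, and Lyz2 rose. Whether these shifts bear on the ligand values was not tested.

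OGN was then set against the other agents directly in Epcam+ cells, to ask whether its ligand levels differed from theirs. These comparisons share the OGN libraries with each other and with the comparison to vehicle, so they add no separate evidence on those libraries. Cxcl5 was 1.57 ± 0.11 log2 units higher with OGN than with EVs (SE), a description because the EV libraries had helped to choose it, and 1.39 ± 0.11 higher than with SFs (SE, adjusted p = 4.74e-08). Cxcl12 differed by -1.05 ± 0.12 log2 units from EVs (SE, adjusted p = 1.72e-05) and by -1.17 ± 0.12 from SFs (SE, adjusted p = 6.74e-06).

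In all, 6 of 9 ligands passed between OGN and EVs, where 2.22% of all genes passed. Cxcl5, Cxcl1, Ccl20 and Cxcl15 were higher, and Cxcl12 and Cx3cl1 were lower. This count holds Cxcl5, whose difference from EVs is a description only. Between OGN and SFs 5 of 9 passed (Cxcl5, Cxcl16 and Ccl20 higher, Cxcl12 and Cx3cl1 lower), where 1.91% of all genes passed. Ccl20 was higher by 1.06 ± 0.17 log2 units against EVs (SE, adjusted p = 6.36e-04) and by 0.76 ± 0.17 against SFs (SE, adjusted p = 0.0216). Against SFs the calls of Ccl20 and Cxcl16 were each lost in 6 of 12 alternative settings, with adjusted p of up to 0.126 and 0.164, among them those without mouse 1 or 2. That of Cx3cl1 against SFs was lost in 2 of 12 (adjusted p up to 0.0708). Against EVs the calls of Cxcl1 and Cx3cl1 were each lost in 3 of 11 settings, with adjusted p of up to 0.317 and 0.0806, among them those without the block and without mouse 1. Cxcl15 was at 1935, 1492, 1558 and 1860 CPM with EVs and at 2229, 2255, 1861 and 2438 CPM with OGN, a log2 difference of 0.38 ± 0.080 (SE, adjusted p = 0.00865). This call was lost in 4 of 11 settings (adjusted p between 2.93e-05 and 0.171), among them those without mouse 2 or 3. Between EVs and SFs no ligand passed with edgeR, where 0.0256% of all genes passed, 2 stood at an unadjusted p under 0.05, and DESeq2 called Cxcl15 alone. The difference of Cxcl5 between EVs and SFs was -0.18 ± 0.11 log2 units (SE), in a pair of groups of which the EV libraries had helped to choose it.

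**Figure D2:**
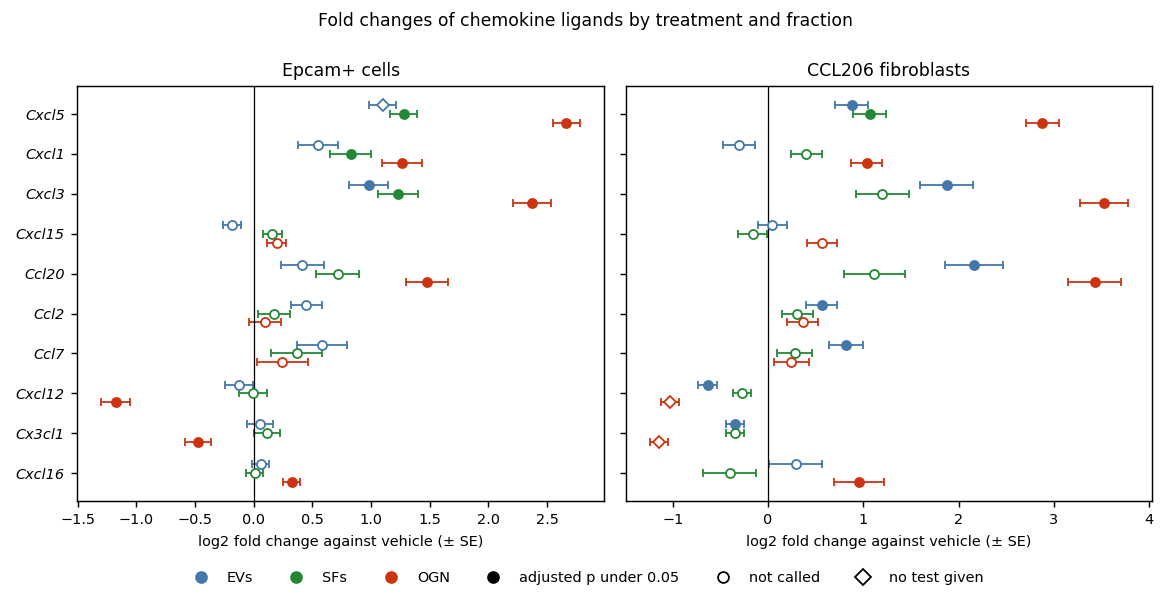
Log2 fold change against vehicle (x axis) of the 9 ligands and Cxcl3 in Epcam+ and CCL206 libraries for OGN, EVs and SFs, with the SE as a line, filled circles where the adjusted p was under 0.05, open circles where it was not and diamonds where no test is given. With OGN, Cxcl5 lies at 2.67 in Epcam+ and 2.88 in CCL206 libraries and Ccl20 at 1.48 and 3.43.

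In CCL206 fibroblasts Cxcl5, Cxcl1, Ccl20 and Cxcl16 rose with OGN, Ccl20 from a low level. Of the 7 ligands tested 4 passed, all higher (Cxcl5, Ccl20, Cxcl1 and Cxcl16), where 4.56% of all 11689 genes passed. Cxcl12 and Cx3cl1 were chosen for this comparison and are described without a test. The median log2 fold change of the 7 was 0.95, against -0.011 over all genes. The summed immune markers moved with OGN here too, from between 77.4 and 149 CPM with vehicle to between 196 and 341 CPM, without overlap. Lyz2 (1.03 log2 units) and Cd14 (1.76) rose, as did 2 of 10 AT2 markers, Sftpa1 (0.83) and Sftpd (0.88), and the part of these shifts in the ligand values was not tested.

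Cxcl5 measured 37.3, 51.2, 31.6 and 38.0 CPM in vehicle-treated and 291, 280, 326 and 257 CPM in OGN-treated CCL206 libraries. The groups lay several-fold apart, and the OGN values lay between those of Epcam+ cells with vehicle and with OGN. The log2 fold change of Cxcl5 was 2.88 ± 0.18 (SE, adjusted p = 7.65e-08), and it passed in all 12 alternative settings. Ccl20 had 16, 18, 12 and 8 counts with vehicle and 88, 196, 298 and 84 counts with OGN, which is 1.69, 2.50, 1.12 and 0.79 CPM against 19.9, 15.4, 18.4 and 10.6 CPM. It rose by 3.43 ± 0.28 on the log2 scale (SE, adjusted p = 1.79e-06), without overlap and in 4 of 4 cultures.

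Cxcl1 varied with the culture as well as with the treatment. It measured 103, 123, 48.1 and 59.4 CPM with vehicle and 271, 272, 74.1 and 114 CPM with OGN, so that the OGN values of mice 3 and 4 overlapped the vehicle values of mice 1 and 2. With mouse in the model the log2 fold change was 1.04 ± 0.16 (SE, adjusted p = 8.25e-04), and without the mouse block the adjusted p was 0.181, the one of 12 alternative settings (from 1.78e-07) in which the call was lost. Cxcl16 was at 17.0, 7.77, 9.31 and 7.32 CPM with vehicle and 24.5, 16.6, 21.99 and 15.3 CPM with OGN, with overlap through mouse 1. The difference of 0.95 log2 units ± 0.26 (SE, adjusted p = 0.0486) was lost in 4 settings, 3 of which left out mouse 2, 3 or 4 (adjusted p between 4.63e-04 and 0.255).

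Cxcl12 measured 563, 686, 752 and 863 CPM with vehicle and 304, 330, 362 and 408 CPM with OGN, a log2 difference of -1.03 ± 0.096 (SE). Cx3cl1 measured 403, 412, 320 and 324 CPM with vehicle and 213, 191, 117 and 152 CPM with OGN, a log2 difference of -1.14 ± 0.099 (SE). Cultures kept much of their order between the groups, with Cxcl12 lowest in mouse 1 and highest in mouse 4 in both, and Cx3cl1 higher in mice 1 and 2 than in mice 3 and 4 in both. Ccl2 and Ccl7 had log2 fold changes of 0.36 and 0.24 (adjusted p = 0.289 and 0.588). Ccl2 passed in 3 of 12 alternative settings (adjusted p between 0.0114 and 0.686), and Ccl7 passed in none. Cxcl15 had a log2 fold change of 0.56 and an adjusted p of 0.0502, just above the threshold, and it passed in 7 of 12 alternative settings (adjusted p between 1.11e-04 and 0.297).

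Because markers of each cell type were present in both sorted fractions, the level of each ligand in one fraction was expressed as a percent of that in the other fraction of the same culture. In CCL206 libraries with vehicle the AT2 markers stood at a median of 22.7 ± 8.28% (SD, n = 4) of their Epcam+ level, and with OGN at 24.5 ± 7.91%. Single markers spread widely, and Sftpc, the surfactant protein C gene, stood at 397% in mouse 1 with vehicle, where the Epcam+ library had 663 CPM of Sftpc against up to 6789 CPM in the other mice, and at between 14.6% and 36.8% in the other mice. Cxcl15 stood at 21.1% and 27.0%, close to these markers in both. Cxcl5 stood above them, at 42.2 ± 14.4% with vehicle and 46.9 ± 8.58% with OGN.

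Ccl20 stood at 8.72 ± 8.36% of its Epcam+ level with vehicle, 20.9% with EVs, 8.67% with SFs and 26.4 ± 11.1% with OGN. Cxcl3 stood at 10.95%, 20.0%, 10.9% and 25.7% in the same order. Cxcl16 stood at 10.8%, 12.2%, 8.05% and 16.3%. The Epcam message itself, which the sort used, stood at 3.97% with vehicle and 5.50% with OGN, lower than the AT2 markers. How much of the fibroblast Ccl20, Cxcl15 and Cxcl16 was epithelial RNA was not tested.

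In the other direction, the fibroblast markers in Epcam+ libraries stood at a median of 21.5 ± 4.35% of their CCL206 level with vehicle, 35.3% with EVs, 25.2% with SFs and 19.1% with OGN. Cxcl12 stood at 18.3%, 26.5%, 22.2% and 16.2%, below the markers in each group. Cx3cl1 stood at 24.1% with vehicle and at 38.6% with OGN, and Cxcl1 at 24.6% and 29.1%. Ccl2 and Ccl7 stood between 17.4% and 25.7% in every group. How much of the Cxcl12 and Cx3cl1 of Epcam+ libraries was fibroblast RNA was not tested.

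**Figure D3:**
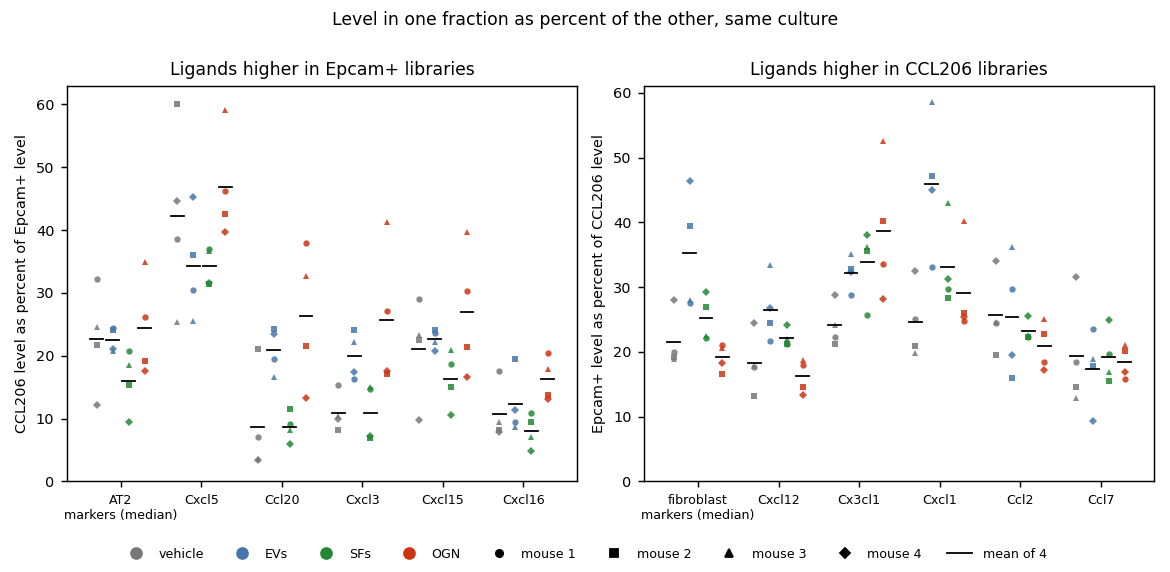
Level in 1 fraction as a percent of the level in the other fraction of the same culture (y axis), for ligands higher in Epcam+ libraries (left) and in CCL206 libraries (right), beside the median of the AT2 or fibroblast markers, with 1 point per culture and the mean of 4 as a line. Cxcl15 sits near the AT2 markers (21.1% against 22.7% with vehicle), and Ccl20 moves from 8.72% with vehicle to 26.4% with OGN.

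EVs in CCL206 fibroblasts were compared with vehicle in the libraries of which those of mice 2 and 4 stood apart. Cxcl5, Ccl20, Ccl2 and Ccl7 rose and Cxcl12 and Cx3cl1 fell, 6 of 9 ligands, where 36.0% of all genes passed. Without the EV-treated libraries of mice 2 and 4 only Ccl20 and Cxcl12 of these passed, an alternative chosen after the data were seen, and all genes called went from 4207 to 645. The comparison shares its vehicle libraries with the one that chose Cxcl12 and Cx3cl1.

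Ccl20 had 20, 26, 41 and 26 counts with EVs, which is 6.47, 7.18, 5.35 and 7.26 CPM, all above the vehicle range of 0.79 to 2.50 CPM. Its log2 fold change was 2.16 ± 0.30 (SE, adjusted p = 0.00149), and 1.81 without mice 2 and 4 (adjusted p = 0.00560, between 1.33e-08 and 0.0468 over the settings). Cxcl12 measured 459, 402, 422 and 544 CPM with EVs, all below the lowest vehicle value of 563 CPM. Its log2 fold change was -0.64 (adjusted p = 0.00199), and -0.60 without mice 2 and 4 (adjusted p = 0.00137). The call of Cxcl12 was lost when mouse 2 was left out of all groups (adjusted p = 0.0564, the highest of 12 settings, from 6.48e-09).

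Cxcl5 measured 68.0, 85.6, 53.5 and 82.9 CPM with EVs, just above the vehicle range of 31.6 to 51.2 CPM. Its log2 fold change was 0.88 ± 0.17 (SE, adjusted p = 0.00426), and 0.55 without mice 2 and 4 (adjusted p = 0.0642, between 6.54e-05 and this value over the settings). Cx3cl1 measured 360, 313, 246 and 236 CPM, overlapping with vehicle, with a log2 fold change of -0.35 (adjusted p = 0.0151, and 0.0842 without mice 2 and 4, between 0.00361 and 0.162 over the settings).

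The Ccr2 ligands were highest in the libraries that stood apart. Ccl2 measured 294, 462, 251 and 457 CPM with EVs against 215, 275, 238 and 251 CPM with vehicle, and Ccl7 measured 84.8, 158, 105 and 181 CPM against 75.6, 88.6, 67.5 and 65.3 CPM. The high values of both were those of mice 2 and 4. Ccl2 had a log2 fold change of 0.56 (adjusted p = 0.0175) and Ccl7 of 0.82 (adjusted p = 0.00659), and without the libraries of mice 2 and 4 the adjusted p were 0.533 and 0.112, the former the highest of its 12 settings (from 0.00654) and the latter within 4.22e-04 to 0.396. With the trend over transcript length taken out, the log2 fold change of Ccl2 was -0.12.

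In the 4 EV-treated fibroblast libraries the difference from vehicle was correlated with transcript length over 11690 genes, which are not independent replicates, with Spearman's rho of -0.289, -0.584, -0.364 and -0.623 in mice 1 to 4. Transcripts of 400 to 1000 nucleotides were higher by a median of 0.26, 0.97, 0.29 and 1.24 log2 units. Ccl8, Ccl20, Ccl7, Ccl2 and Cxcl1 are of that length (515, 802, 807, 813 and 959 nucleotides), and Cxcl12 is long (5669 nucleotides). Cxcl1 was at 128, 73.7, 37.5 and 41.3 CPM with EVs (log2 fold change -0.30, adjusted p = 0.162, and -0.043 without mice 2 and 4, adjusted p = 0.901). The part of this trend in the single ligand values was not tested beyond the settings given.

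**Figure D4:**
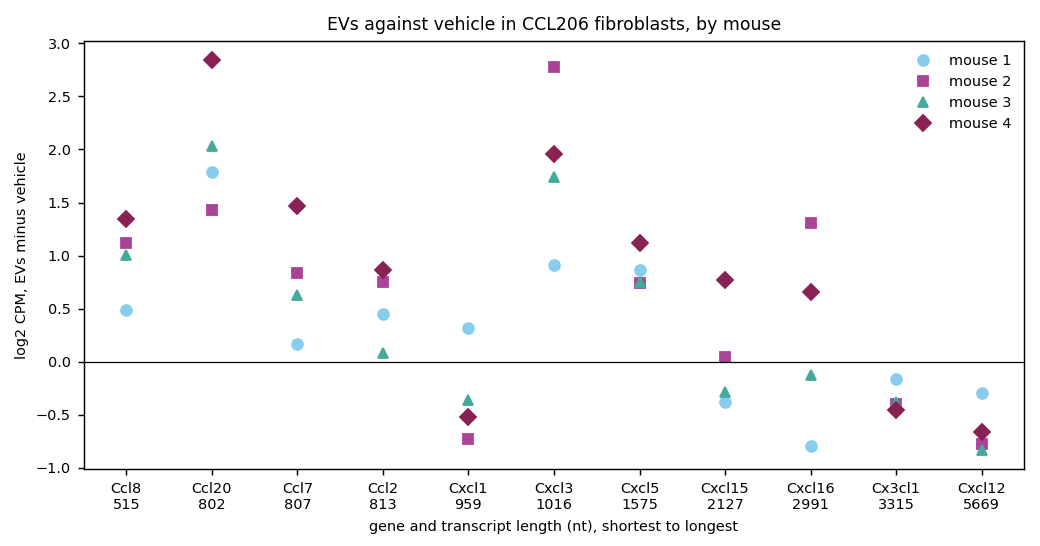
Difference in log2 CPM between EVs and vehicle in the CCL206 libraries of each mouse (y axis) for the 9 ligands, Cxcl3 and Ccl8, ordered by transcript length, with 1 mark shape per mouse. Ccl20 and Cxcl5 are above 0 and Cxcl12 and Cx3cl1 below 0 in 4 of 4 cultures, while Ccl7 spreads from 0.17 in mouse 1 to 1.47 in mouse 4.

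With SFs in fibroblasts 1 of 9 ligands passed, Cxcl5, where 0.0599% of all genes (7 genes) passed. Cxcl5 measured 88.8, 65.7, 94.1 and 78.6 CPM with SFs, all above vehicle, and rose by 1.07 ± 0.17 on the log2 scale (SE, adjusted p = 0.0294). The call was lost without mouse 1, 3 or 4, with an adjusted p between 5.08e-06 and 0.647 over 12 settings. Ccl20 had 21, 16, 20 and 15 counts, 2.54 to 3.60 CPM, above the vehicle range, with a log2 fold change of 1.12 and an adjusted p of 0.554. Cxcl12 and Cx3cl1 had log2 fold changes of -0.28 and -0.35 (adjusted p = 0.699 and 0.538). Each passed in 2 of 12 alternative settings. These were only the libraries compared (adjusted p = 0.00225 and 8.94e-04) and no EV-treated libraries (0.0151 and 0.0379). The tests of both genes use fibroblast vehicle libraries that had helped to choose them.

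Direct comparisons in fibroblasts reuse the OGN libraries that chose Cxcl12 and Cx3cl1. Between OGN and EVs 7 of 9 ligands passed (4 higher, 3 lower, 37.6% of all genes passing) and between OGN and SFs 7 of 9 (5 higher, 2 lower, 2.79% of all genes), counts that hold Cxcl12 and Cx3cl1. Without the EV-treated libraries of mice 2 and 4, Ccl7 no longer passed against EVs (-0.13, adjusted p = 0.589). Cxcl16 then did (1.37, adjusted p = 9.83e-04), and the other 6 calls held. In both counts the calls of Cxcl12 and Cx3cl1 are descriptions, because OGN values had helped to choose these genes. Cxcl5 was higher with OGN by 2.00 ± 0.17 log2 units against EVs (SE, adjusted p = 6.57e-06), or 2.33 without those libraries (adjusted p = 1.05e-08), and by 1.81 ± 0.17 against SFs (SE, adjusted p = 2.49e-05). Ccl20 was higher by 1.27 ± 0.25 against EVs (SE, adjusted p = 0.00279), or 1.63 without those libraries (adjusted p = 0.00140), and by 2.31 ± 0.27 against SFs (SE, adjusted p = 1.60e-04). Cxcl12 was at -0.39 against EVs and -0.75 against SFs, and Cx3cl1 at -0.80 against both.

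Cxcl15 was higher with OGN by 0.52 ± 0.16 log2 units against EVs (SE, adjusted p = 0.0186), or 0.86 without those libraries (adjusted p = 7.24e-05), and by 0.73 ± 0.16 against SFs (SE, adjusted p = 0.0168), and Cxcl16 by 1.36 ± 0.28 against SFs (SE, adjusted p = 0.0121). The calls of Cxcl15 were lost in 4 of 12 settings against EVs and 3 of 12 against SFs, both without mouse 2 or 3, that of Cxcl16 in 2 of 12, without mouse 3 or 4, and that of Cxcl1 against SFs (main adjusted p = 0.0484) in 6 of 12, including each mouse left out. Between EVs and SFs in fibroblasts 4 of 9 passed, where 28.9% of all genes passed. Ccl20 (1.04 log2 units) and Ccl7 (0.54) were higher with EVs, and Cxcl12 (-0.36) and Cxcl1 (-0.71) were lower, with adjusted p of 0.0212, 0.0406, 0.0183 and 0.0144. Without the EV-treated libraries of mice 2 and 4 none of the 4 calls between EVs and SFs was left with edgeR. With the trend over transcript length taken out, only Cxcl1 of the 4 still passed. Ccl20, Ccl7 and Cxcl12 were then at 0.51, -0.026 and -0.10 log2 units (adjusted p = 0.180, 0.886 and 0.457).

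Whether a ligand responded differently in the fractions was tested as the difference of its log2 fold changes, CCL206 minus Epcam+. For OGN 1 of 7 ligands tested passed, Ccl20, with a difference of 1.93 ± 0.34 (SE, adjusted p = 0.00302), where 0.551% of all 11805 genes passed. The difference of Ccl20 was not called without mouse 1 (adjusted p = 0.0935) or mouse 3 (0.223, the highest over the settings, from 2.23e-05). For Cxcl5 the difference was 0.21 ± 0.21 (SE, adjusted p = 1.00), so an unequal response of Cxcl5 was not detectable with 4 cultures. The test of Cxcl5 uses Epcam+ vehicle libraries that had helped to choose it, so it is not independent of that choice. Cx3cl1 differed by -0.67 ± 0.16 and Cxcl12 by 0.14 ± 0.17 log2 units (SE), which are descriptions because their fibroblast values chose them.

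For EVs 4 of 8 passed (Ccl20 at 1.68, Cxcl1 at -0.87, Cxcl12 at -0.54 and Cx3cl1 at -0.43, adjusted p = 0.00550, 0.0183, 0.0232 and 0.0462), where 23.8% of all genes passed. None of these was called when the EV-treated CCL206 libraries of mice 2 and 4 were left out. With the trend over transcript length taken out, only Cxcl1 of them still passed. The tests of Cxcl12 and Cx3cl1 use the fibroblast vehicle libraries that had helped to choose them, so they are not independent of that choice. The count of 4 holds both genes. For SFs no ligand passed with edgeR or with DESeq2, 1 stood at an unadjusted p under 0.05, and 0% of all genes passed with edgeR (590 at an unadjusted p under 0.05, and 2 called by DESeq2).

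Of 28 other chemokine ligands listed, 5 were in the table (Cxcl3, Ccl8, Ccl9, Ccl25 and Cxcl17), and the rest were not analysed here. Cxcl3, the neighbour of Cxcl5 and another ELR ligand, was the only one of them to pass against vehicle in Epcam+ cells, and it passed with each agent. It measured 26.2, 13.5, 22.4 and 17.0 CPM with vehicle, 47.7, 37.9, 37.7 and 41.8 CPM with EVs, 43.5, 41.4, 50.4 and 59.2 CPM with SFs and 119, 120, 78.1 and 113 CPM with OGN. Each treated library lay above every vehicle library. The log2 fold changes of Cxcl3 were 0.98 (adjusted p = 0.00406) with EVs, 1.23 (3.94e-04) with SFs and 2.37 (2.11e-09) with OGN.

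In fibroblasts Cxcl3 measured 4.02, 1.11, 2.33 and 1.68 CPM with vehicle (8 to 38 counts) and 32.2, 20.6, 32.2 and 19.7 CPM with OGN, and rose by 3.52 ± 0.25 on the log2 scale (SE, adjusted p = 4.34e-07). With EVs it measured 7.77, 9.11, 8.36 and 7.26 CPM and rose by 1.87 (adjusted p = 0.00199), and by 1.47 without the EV-treated libraries of mice 2 and 4 (adjusted p = 0.00560, between 1.98e-08 and 0.0507 over the settings, the highest without mouse 2). With SFs in fibroblasts its log2 fold change was 1.20 and it did not pass (adjusted p = 0.389). It passed in 3 of 11 alternative settings (lowest adjusted p = 0.0201). Of the 50-base stretches of the Cxcl3 gene 4.24% are shared with other genes on the same strand, so part of its reads could be divided between copies. Ccl9, a Ccr1 ligand, fell with OGN in fibroblasts, from 25.7, 26.0, 16.9 and 16.3 CPM to 8.16, 6.69, 5.48 and 7.67 CPM (log2 fold change -1.59 ± 0.19, SE, adjusted p = 8.31e-05). Its change differed between the fractions by -1.34 log2 units (adjusted p = 0.0264), a call lost in 6 of 12 settings, including each of the 4 mice left out (adjusted p up to 0.315). Ccl8, a short transcript beside Ccl2 and Ccl7, measured 12.4, 16.8, 12.5 and 17.4 CPM with vehicle and 17.5, 36.7, 25.3 and 44.6 CPM with EVs in fibroblasts, highest in mice 2 and 4. Its log2 fold change was 1.04 (adjusted p = 0.00290), 0.64 without these 2 libraries (adjusted p = 0.0432) and 0.18 with the trend over transcript length taken out (adjusted p = 0.389, the highest of 12 settings, from 2.27e-06).

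Cxcl17, a mucosal chemokine-like ligand, was at 62.8 to 96.4 CPM in Epcam+ libraries with vehicle and at 85.3 to 107 CPM with OGN (log2 fold change 0.24, adjusted p = 0.368). Between OGN and SFs it passed (0.44, adjusted p = 0.0444), a call lost in 8 of 12 settings, including each mouse left out (adjusted p up to 0.214). Ccl25 stayed between 1.10 and 9.11 CPM in all 32 libraries and passed in no comparison with vehicle. Among 18 receptors only Cxcr4 and among 5 atypical receptors only Ackr3 were in the table, and neither passed in a comparison with vehicle, with edgeR or DESeq2, or stood there at an unadjusted p under 0.05. Cxcr4, the Cxcl12 receptor, was at 19.7, 17.0, 1.54 and 3.90 CPM in OGN-treated fibroblasts, high in mice 1 and 2 only. Cxcr2, Ccr2, Ccr6 and Cx3cr1, the receptors through which most of these ligands act, were not analysed here.

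**Figure D5:**
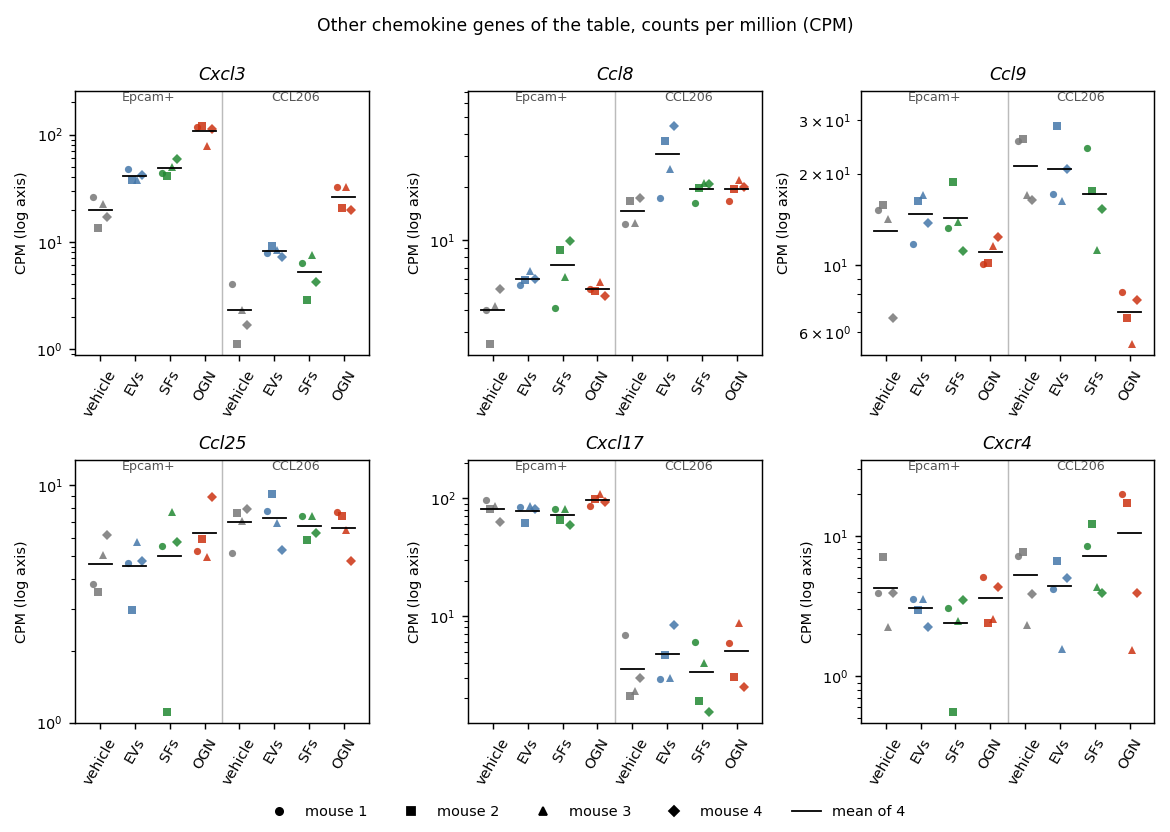
CPM (log axis) of the further chemokine genes of the table in the 8 groups, 1 point per library and 1 mark shape per mouse, with the mean of 4 as a line. Cxcl3 rises from 13.5 to 26.2 CPM with vehicle to 78.1 to 120 CPM with OGN in Epcam+ libraries, and Ccl9 falls from 16.3 to 26.0 CPM to 5.48 to 8.16 CPM in CCL206 libraries.

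Genes that act on chemokines were given from lists of proteases (7 of 8 in the table) and of regulators of inflammatory messages (11 of 11). With OGN the RNase gene Zc3h12a (Regnase-1), which degrades inflammatory messages, rose in Epcam+ cells by 1.49 ± 0.18 (SE, adjusted p = 9.82e-06) and in fibroblasts by 1.11 ± 0.13 log2 units (SE, adjusted p = 4.28e-05). Of the 11 regulators 2 rose with OGN in each fraction, the other being Tnfaip3, an inhibitor of NF-kB signalling, in Epcam+ cells (0.55, adjusted p = 0.00222), and Traf3ip2, the adaptor of the IL-17 receptor, in fibroblasts (0.53, adjusted p = 0.0199), where 2.70% and 4.56% of all genes passed. The medians of the regulators were 0.026 and -0.012 log2 units.

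Of the 7 proteases 1 changed with OGN in each fraction, beside the same 2.70% and 4.56% of all genes. Dpp4, which trims the amino terminus of Cxcl12 and other ligands, fell in Epcam+ cells (-0.61, adjusted p = 0.0107), and Adam17, which sheds Cx3cl1 and Cxcl16, rose in fibroblasts (0.38, adjusted p = 0.0461). With EVs in fibroblasts Adam10 (-0.50, adjusted p = 0.0138) and Dpp4 (-0.93, adjusted p = 0.0136) fell, Zc3h12a (0.70, adjusted p = 0.00373) and Nfkbia (0.48, adjusted p = 0.0124) rose and Tnfaip3 fell (-0.50, adjusted p = 0.0283), in the comparison in which 36.0% of all genes passed. Without the EV-treated libraries of mice 2 and 4 only Zc3h12a of these passed (0.74, adjusted p = 0.00876), and Adam10, Dpp4, Nfkbia and Tnfaip3 were at -0.24, -0.64, 0.16 and -0.24 (adjusted p = 0.131, 0.167, 0.292 and 0.375). No gene of either list passed with EVs or SFs in Epcam+ cells or with SFs in fibroblasts with edgeR. At an unadjusted p under 0.05 in these comparisons stood 2, 1 and 0 proteases and 3, 3 and 1 regulators, and DESeq2 called Mmp2 and Zc3h12a with EVs in Epcam+ cells.

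The genes whose pattern was most like that of the choosing ligands were found by Pearson's r over the 32 libraries, in log2 CPM less the mean of each fraction and mouse. For Cxcl5 these were Chil1 (r = 0.972), Lcn2 (0.964), Saa3 (0.959), Cxcl3 (0.945) and Slpi (0.945). For Cxcl12 they were Timp3 (0.897), Dkk3 (0.882), Galnt15 (0.872), Cx3cl1 (0.867) and Ak5 (0.861). For Cx3cl1 they were Fkbp5 (0.893), Timp3 (0.886), Dkk3 (0.878), Cxcl12 (0.867) and Amigo2 (0.860). Among the ligands, Cxcl5 was at r = 0.891 with Ccl20 and 0.796 with Cxcl1, at 0.236 with Ccl2 and 0.183 with Ccl7, and at -0.819 with Cxcl12 and -0.840 with Cx3cl1. These values describe libraries that share cultures, treatments and depth.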

How the data were processed

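RNA-seq of both sorted fractions, 32 libraries in all, was analyzed. The authors had reads trimmed with Trimmomatic (version 0.30 in the submitters' processing notes, which also name DESeq2 1.34.0), aligned and counted, and deposited raw counts per gene without normalization. The aligner, the counting program, its strand setting and the annotation are not given in the sources used here. The labels name GRCm39 and the methods GRCm38 patch 6. No gene of the table has a count under 1 in any library (660 genes have a lowest count of 1), so a gene silent in 1 fraction is not analysed here. No column was left out (0 of the per-sample columns).

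Counts were filtered with filterByExpr, scaled by TMM and tested with edgeR's quasi-likelihood F test (edgeR 4.0.16, R 4.3.3). Each fraction was fitted by itself, its 16 libraries sharing 1 estimate of the spread, with terms for treatment and mouse. In Epcam+ cells 11716 genes were tested and in fibroblasts 11689. The difference of a response between fractions was tested over 32 libraries with a mouse term for each fraction (11805 genes). P values were adjusted by Benjamini-Hochberg over all genes tested, and an adjusted p under 0.05 was called. SEs were obtained from the size of the log2 fold change and its F value, as their quotient after taking the root of F. CPM are on 1 TMM scale over all libraries, and their logarithms carry a prior count of 2. The scripts were tested on simulated data. Transcript lengths came from GENCODE, from the Ensembl canonical transcript or, where a gene had none, its longest transcript. Positions and upstream bases came from RefSeq.

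A mouse number stands for the same animal in every group, and the study paired by it, so the block is in the model. Each library was taken as its deviation from the mean of its own group, and treated libraries were correlated with vehicle libraries of the same fraction. Pairs with the same number had mean correlations from 0.0872 to 0.224, and those with other numbers from -0.0700 to -0.0296. Not every pair with the same number was over 0.1. None of the 48 within-group pairs of libraries was identical, and each differed beyond counting noise (chi-square over its degrees of freedom at least 2.98). Depth ran from 1805914 to 17675454 counts, and the p-values measure the spread between cultures of 4 mice and 1 fibroblast line.

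The ligands and lists were chosen with earlier results of these data known. Named are all ligands of the rule, the further chemokine ligands and receptors in the table, up to 4 called genes of the protease and regulator lists per comparison with vehicle, and the 5 genes most like Cxcl5, Cxcl12 and Cx3cl1. Alternatives were no block, the DESeq2 Wald test (1.42.0), RLE size factors, no filter on low counts, a minimum of 10 counts in each library, only the libraries compared, each mouse left out, no EV-treated libraries, and each library's trend over transcript length taken out. Leaving out the EV-treated CCL206 libraries of mice 2 and 4 alone was added after the data were seen.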

Additional observations from a re-analysis of the deposited data

Results flagged for a closer look

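The response to OGN differed between the fractions for Ccl20, by 1.93 log2 units (CCL206 minus Epcam+) in the test of the difference itself. This difference of Ccl20 was not called without mouse 1 or without mouse 3. The response to EVs differed for Ccl20 by 1.68, for Cxcl12 by -0.54, for Cx3cl1 by -0.43 and for Cxcl1 by -0.87 log2 units, where 23.8% of all genes passed. None of these EV differences was called when the EV-treated CCL206 libraries of mice 2 and 4 were left out. No ligand had a library beyond Dixon's limit for groups of 4, a limit that chance alone passes in about 1 of 20 groups.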

How the results depend on the processing

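Of 636 fold changes of the 9 ligands against vehicle under an alternative, 557 kept their direction and call, 42 lost and 25 gained a call, and 12 changed sign. Between agents 69 calls were lost and 12 gained of 627 values, and between fractions 25 were lost and 2 gained of 392. The sign changes were small values near 0 except with EVs in fibroblasts. There Cxcl16 (0.29) was -0.41 without the EV-treated CCL206 libraries of mice 2 and 4 and between -0.085 and 0.65 with a mouse left out, Ccl2 (0.56) was -0.12 with the length trend taken out, and Cxcl15 (0.046) was -0.034 without the block, -0.19 with the length trend taken out, -0.29 without those libraries of mice 2 and 4 and between -0.21 and 0.21 with a mouse left out. With a mouse left out, Ccl2 with OGN in Epcam+ cells ran from -0.035 to 0.35, with -0.0065 without mouse 1, Cxcl12 from -0.18 to 0.046 with EVs and from -0.095 to 0.11 with SFs, and Cxcl16 with SFs from -0.010 to 0.021. The causes were not tested.

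The replicate block by mouse set several counts of ligands called. Without it, in Epcam+ cells, OGN against vehicle gave 5 (with it 6), EVs 0 (0), SFs 1 (2), OGN against EVs 3 (6), OGN against SFs 3 (5) and EVs against SFs 0 (0). In fibroblasts the counts without the block were 2 (with it 4) for OGN, 5 (6) for EVs, 1 (1) for SFs, 6 (7) for OGN against EVs, 5 (7) for OGN against SFs and 2 (4) for EVs against SFs. The differences between fractions gave 1 (1) for OGN, 1 (4) for EVs and 0 (0) for SFs, and the vehicle comparison 9 (9).

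With each mouse left out in turn, ligands called in Epcam+ cells ranged from 4 to 5 for OGN, 0 to 3 for EVs, 1 to 2 for SFs, 4 to 6 for OGN against EVs, 3 to 3 for OGN against SFs and 0 to 0 for EVs against SFs. In fibroblasts they ranged from 3 to 5 for OGN, 1 to 7 for EVs, 0 to 1 for SFs, 4 to 7 for OGN against EVs, 4 to 6 for OGN against SFs and 0 to 5 for EVs against SFs. Between fractions they ranged from 0 to 1 for OGN, 1 to 3 for EVs and 0 to 0 for SFs.

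Using only the libraries compared gave 3 for OGN against SFs in Epcam+ cells and, in fibroblasts, 3 for EVs, 5 for SFs, 4 for OGN against EVs and 0 for EVs against SFs, and 1 for the EV difference between fractions. Without the EV-treated libraries SFs called 1 in Epcam+ cells and 3 in fibroblasts, and the OGN difference between fractions 2. SFs in Epcam+ cells called 1 with RLE and 1 with at least 10 counts, a filter under which Ccl20 was not tested in fibroblasts and the OGN difference called 0. DESeq2 called 1 between EVs and SFs in Epcam+ cells. With the length trend taken out EVs called 1 in Epcam+ cells, and 2 differed between fractions. Without the EV-treated CCL206 libraries of mice 2 and 4, EVs called 2, EVs against SFs 0 and the EV difference 0. Leaving out the EV-treated libraries was not run for comparisons with EVs.

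Counts over all genes moved by over 1.5 times in many settings. Against vehicle in Epcam+ cells, the 316 genes of OGN became 198 without the block and 185 with only the libraries compared, the 104 of EVs became 9 without the block and 201 with DESeq2, and the 27 of SFs became 6, 53 and, with only the libraries compared, 42. In fibroblasts the 533 of OGN became 863 with DESeq2, 1370 with only the libraries compared, 1770 without the EV-treated libraries and 854 with the length trend taken out, the 4207 of EVs became 387, 2702 and, without the libraries of mice 2 and 4, 645, and the 7 of SFs became 32, 302 and 108. With a mouse left out the lowest counts were 144, 17 and 11 in Epcam+ cells and 236, 19 and 2 in fibroblasts, for OGN, EVs and SFs. EVs against SFs in fibroblasts fell from 3380 to 0 without mouse 2 or mouse 4.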

Other observations

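Cxcl5, Ccl20 and Cxcl16, higher in Epcam+ cells with vehicle, and Cxcl1, higher in fibroblasts, rose with OGN in both fractions. Cxcl12 and Cx3cl1, both higher in fibroblasts, were lower with OGN in both fractions, and their fibroblast values chose them. The call of Cx3cl1 in Epcam+ cells was lost in 5 of 12 alternative settings. How much of the Epcam+ values of both genes was fibroblast RNA was not tested. The Ccr2 ligands Ccl2 and Ccl7 passed with OGN in neither fraction in the main test. In fibroblasts Ccl2 passed in 3 of 12 alternative settings. Cxcl15, the most abundant ligand per kilobase in Epcam+ cells, did not pass against vehicle with any of the agents in either fraction with edgeR, although its difference with OGN in fibroblasts (0.56 log2 units) passed in 7 of 12 alternative settings.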
